A study of Mus musculus with 12 samples.

Results

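Hearts of diabetic mice given angiotensin IV (AngIV) were compared with hearts of diabetic mice that were not given it (DM). The comparison rests on the 8 arrays whose titles name those groups, 4 AngIV and 4 DM, out of 12 in the series. The 4 remaining arrays come from non-diabetic mice (NC), which supplied reference levels and a share of the estimate of the spread. Each array measured total RNA of the myocardium of 1 mouse, per the series design.

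DM and AngIV mice shared the diabetic model. Both received streptozotocin, a toxin that kills the insulin-producing beta cells, by intraperitoneal injection on 5 days, and only mice whose fasting blood glucose had reached 16.7 mM after 2 weeks entered the groups. NC mice received injections of vehicle for 5 days. The AngIV mice were then infused with the peptide at 2.88 mg/kg/day, which the labels call a high dose, from the end of week 8 to the end of week 24, given as 4 months in the labels. Whether DM mice were infused with a vehicle, and the strain, the sex, the route of infusion, the hour of sampling and the region of the heart, are not given in the sources used here. The tissue is labelled 6 months. Groups were taken from the titles, because the disease state tag goes against them, calling NC mice diabetic and AngIV mice negative controls.

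Angiotensin IV is a short peptide that is left when aminopeptidases trim angiotensin II from its amino end. It binds weakly to the classical angiotensin receptors and tightly to insulin-regulated aminopeptidase, the product of Lnpep, which travels with glucose transporters in insulin-responsive cells. The series title names autophagy mediated by FoxO1, a transcription factor that insulin signalling holds out of the nucleus, as the process under study. Signals below are log2 values from robust multi-array average (RMA), so that 1 unit is a factor of 2 in signal, and a log2 change is the AngIV mean minus the DM mean, given with the standard error (SE) of a limma fit with n = 4 per group. A gene is called nominally higher or nominally lower where the unadjusted limma p is under 0.05, a level that many genes reach without any effect.

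Among the genes with the smallest p were interferon-inducible GTPases, with higher signals in AngIV hearts, and a membrane lipid enzyme and a magnesium transporter, with lower signals, but no gene passed the test over all genes. Limma called 0 of 13653 genes at a Benjamini-Hochberg adjusted p under 0.05, a percentage of 0, and the smallest adjusted p was 0.177, shared by 5 genes. At the unadjusted level 1199 genes (8.78%) differed, 720 nominally higher (5.27%) and 479 nominally lower (3.51%), and these percentages are the background against which the counts for gene groups below are read. The 4 AngIV arrays lay entirely above the 4 DM arrays for 488 genes (3.57%) and entirely below them for 299 (2.19%). A positive log2 change was found for 7227 genes (52.9%), and the median log2 change was 0.01. The typical SE was 0.127. Correlations between arrays were 0.980 to 0.986 within AngIV, 0.972 to 0.984 within DM and 0.974 to 0.984 between the groups. Without AngIV replicate 2 limma called 5 genes, and without DM replicate 2 it called 1, all of them named below. Without DM replicate 4 the nominally higher genes were 474. On the AngIV and DM arrays 95% of the negative control probe sets lay below an average signal of 5.53, and a gene whose mean in either group lay below it is described here as near background and given no ratio.

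Signals of atrial muscle genes were uneven between the arrays. Myl7, the regulatory myosin light chain of the atria, read 8.86, 9.68, 3.97 and 8.10 on DM replicates 1 to 4 and 3.94, 3.58, 3.53 and 3.84 on AngIV replicates 1 to 4. The NC arrays read 10.08, 4.28, 7.90 and 3.72, so that high and low arrays occurred in NC as well as in DM. Myl4, the essential light chain of the atria, read 8.95, 9.24, 5.66 and 7.88 in DM and 5.63, 5.10, 5.49 and 5.92 in AngIV. Sln, whose product sarcolipin restrains the calcium pump SERCA, read 7.65, 8.83, 5.16 and 7.28 in DM and 5.09, 4.83, 5.02 and 5.01 in AngIV. On DM replicate 3 and on each AngIV array these 3 genes lay at or near the level of the negative controls, and on DM replicates 1, 2 and 4 they stood far above it. Of the 16 tested atrial and conduction markers 4 were nominally lower and 0 nominally higher, and with the covariate described next 1 was lower and 4 higher. The mean of that list ran from 5.67 to 7.14 over the DM arrays and from 5.83 to 5.98 over the AngIV arrays, while the 7 ventricular markers had 0 nominal differences and a mean of 7.13 to 7.22 in DM and 7.14 to 7.25 in AngIV. In bulk tissue fewer cells of a type and less RNA per cell cannot be told apart.

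**Figure D1:**
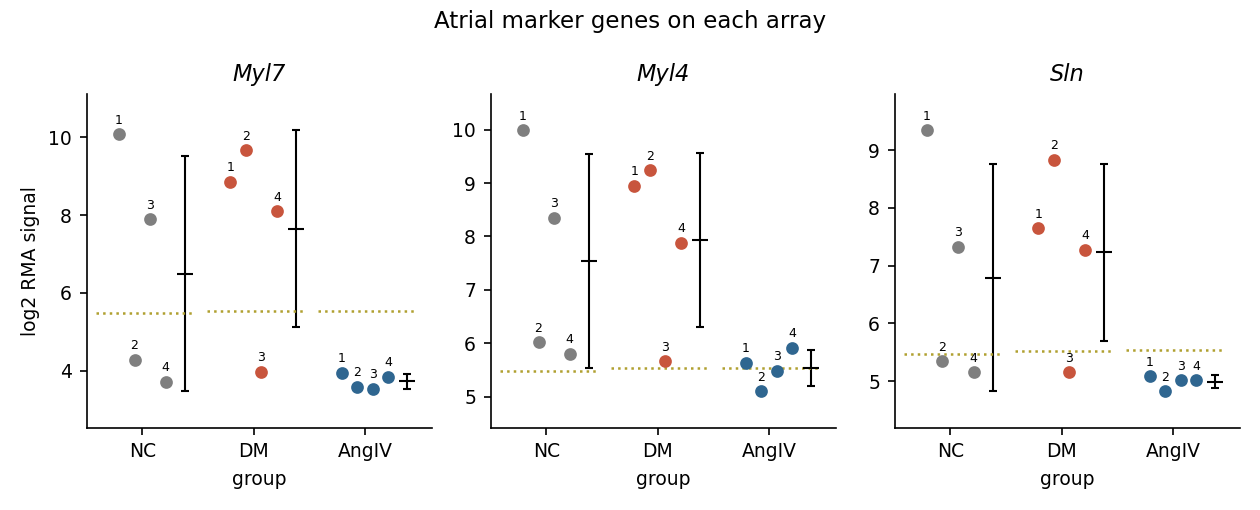
Log2 RMA signal (y axis) of the atrial genes Myl7, Myl4 and Sln on each of the 12 arrays, by group (x axis); points carry the replicate number, bars give the mean and SD (n = 4) and dotted lines the group mean of the level under which 95% of negative controls lay. DM replicates 1, 2 and 4 lie high, at 8.10 to 9.68 for Myl7, while DM replicate 3 and the AngIV arrays lie between 3.53 and 3.97.

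Every result was therefore also fitted with the Myl7 signal of each array as a covariate. That fit called 0 genes, with a smallest adjusted p of 0.248, 669 genes nominally higher (4.90%) and 472 nominally lower (3.46%), and its typical SE was 0.162. Myl7 barely varied over the AngIV arrays, at 3.53 to 3.94, so its slope comes almost wholly from NC and DM. Only DM replicate 3, at 3.97, lay near the AngIV level, so treatment and atrial signal can hardly be told apart. Values with the covariate carry that slope over to the AngIV arrays and do not settle the change at equal atrial content. Of the 1199 genes at an unadjusted p under 0.05 without the covariate, 564 (47.0%) also reached it in the same direction with it, 347 higher and 217 lower. The signals of 8 genes (0.0586%) followed Myl7 within the groups at an adjusted p under 0.05, all with a positive slope. This count and those below include Myl7, which was fitted on its own signal and was called by construction. The 8 were Myl7 itself, Myl4, Sln and Mybphl, an atrial relative of myosin-binding protein C, and the matrix or secreted protein genes Cilp, Dkk3, Mfap4 and Prg4. The last 5 were chosen by that test after their values were seen. The number of such genes was 4 without NC replicate 1, 5 without DM replicate 3 and 11 without AngIV replicate 3. Fitted with the covariate, the log2 change of Myl4 was 0.16 ± 0.19 and that of Sln 0.20 ± 0.22. Over all genes named here and in the closing observations, 27 lost an unadjusted p under 0.05 with the covariate and 11 gained one. Of the 27 that lost it, 17 kept their direction with a log2 change within 1.5 times of the first, among them 0.28 ± 0.14 for Foxo3, 0.51 ± 0.26 for Gbp4, -0.76 ± 0.43 for Scd4 and -0.30 ± 0.17 for Sparc. They also included Acad8, Akt1, Atg4d, Dbt, Gpx1, Klf10, Map1lc3a, Ndufs1, Psmd7, Scn4b, Sgk1, Smad3 and Txn1. For the genes whose nominal call changed together with a larger move, and for list counts that changed by more than 1.5 times, the value with the covariate stands beside the first one below, except for the genes selected by their slope on Myl7, of which Cilp, Dkk3, Mfap4 and Prg4 moved from -0.43, -0.80, -0.10 and -0.39 to 0.44, 0.88, 0.63 and 0.59.

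Immunity-related GTPases (IRGs) had the largest median log2 change of the 31 pathway lists. IRGs are large interferon-inducible GTPases of mice that act against bacteria and parasites living in vacuoles inside cells. The regulatory members, Irgm1, Irgm2 and Igtp (also called Irgm3), sit on the cell's own membranes and keep the effector members, such as Iigp1, away from them. They are classical targets of interferon-gamma, and promoters of interferon targets often carry an interferon-stimulated response element (ISRE), read by complexes that contain Irf9, or a gamma-activated site (GAS). The promoters of 3 IRGs are printed here because each holds an ISRE match and their genes had like changes. Each window runs from 250 bases before to 50 bases after the RefSeq start on assembly GRCm38.p6, written 5′ to 3′ along the gene. Capitals mark matches on either strand to GAAA, NN and GAAA in a row (N being any base) for an ISRE, or to TTCNNNGAA for a GAS. The promoter of Isg15, an interferon target chosen for contrast after its values were seen, follows them.
Igtp (chr11:58199306-58199605, + strand): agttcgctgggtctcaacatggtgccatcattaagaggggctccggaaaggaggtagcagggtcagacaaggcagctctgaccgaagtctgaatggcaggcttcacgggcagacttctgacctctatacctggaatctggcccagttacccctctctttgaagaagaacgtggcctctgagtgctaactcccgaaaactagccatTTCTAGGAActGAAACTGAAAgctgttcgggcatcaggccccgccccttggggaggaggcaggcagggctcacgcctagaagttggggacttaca
Irgm1 (chr11:48871371-48871670, - strand): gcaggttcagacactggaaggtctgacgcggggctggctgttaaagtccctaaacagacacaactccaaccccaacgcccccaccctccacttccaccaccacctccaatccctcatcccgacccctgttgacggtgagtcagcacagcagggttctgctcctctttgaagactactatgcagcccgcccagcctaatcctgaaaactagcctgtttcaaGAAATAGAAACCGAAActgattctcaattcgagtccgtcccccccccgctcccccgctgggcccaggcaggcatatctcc
Irgm2 (chr11:58214727-58215026, + strand): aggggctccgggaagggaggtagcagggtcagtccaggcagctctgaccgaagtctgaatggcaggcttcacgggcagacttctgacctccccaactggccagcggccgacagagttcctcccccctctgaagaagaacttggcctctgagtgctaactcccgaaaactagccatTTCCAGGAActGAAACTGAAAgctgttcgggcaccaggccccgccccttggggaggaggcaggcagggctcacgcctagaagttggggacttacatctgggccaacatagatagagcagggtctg
Isg15 (chr4:156200769-156201068, - strand): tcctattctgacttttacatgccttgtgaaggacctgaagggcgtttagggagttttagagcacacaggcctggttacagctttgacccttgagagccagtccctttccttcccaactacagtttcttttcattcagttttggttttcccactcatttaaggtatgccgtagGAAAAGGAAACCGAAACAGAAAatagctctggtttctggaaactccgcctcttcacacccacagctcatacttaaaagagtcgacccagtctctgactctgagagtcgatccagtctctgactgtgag

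The Igtp and Irgm2 windows each held 1 ISRE match and 1 GAS match, side by side and not overlapping, in stretches of nearly the same sequence. The Irgm1 window held 2 overlapping ISRE matches and the Isg15 window 3 overlapping ones, with 0 GAS matches in either. Among all 32851 RefSeq promoter windows 3.44% held an ISRE match and 8.30% a GAS match. Of the 7 tested IRGs with a window, 5 held an ISRE and 4 a GAS match in at least 1 window, against 3.51% and 8.37% of the 10965 tested genes with one. Such matches were also common in other interferon lists. An ISRE match was held by 3 of 3 guanylate-binding protein genes, 13 of 26 interferon-stimulated genes and 5 of 18 class I genes with a window, and a GAS match by 1, 8 and 2 of them. Isg15, with its ISRE matches, read 3.95, 3.64, 4.18 and 4.15 in DM and 3.93, 3.89, 3.92 and 3.42 in AngIV, near background and overlapping, with a log2 change of -0.19 ± 0.14.

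Of 11 tested IRGs, 11 had a positive log2 change and 7 (63.6%) were nominally higher in AngIV, beside 5.27% of all genes, with 0 nominally lower. The AngIV arrays lay entirely above the DM arrays for those 7, beside 3.57% of all genes. A small p on the same arrays favours such a lack of overlap, so it adds no separate support. The median log2 change of the list was 0.60, and 0.79 with the Myl7 covariate, where the nominal count was again 7. Both medians are the value of Tgtp2. With the covariate Igtp, Irgm1, Irgm2 and F830016B08Rik moved down, to 1.12, 0.81, 0.91 and 1.65. Iigp1, Tgtp2 and Gm12250 moved up, to 1.09, 0.79 and 0.67. None of the 11 passed the adjusted test on all 12 arrays.

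Irgm1 read 6.06, 6.07, 6.31 and 5.95 on DM replicates 1 to 4 and 7.09, 6.40, 7.36 and 6.96 on AngIV replicates 1 to 4. Each AngIV array lay above each DM array, and the log2 change was 0.85 ± 0.16, a ratio of 1.80 (limma adjusted p = 0.182). Irgm2 read 5.95, 5.93, 6.02 and 6.10 in DM, a narrow span, and 7.01, 6.47, 7.68 and 6.93 in AngIV. Its log2 change was 1.02 ± 0.19, a ratio of 2.03 (limma adjusted p = 0.177). For Igtp the DM arrays read 5.07, 5.35, 5.58 and 4.98 and the AngIV arrays 6.36, 5.84, 7.13 and 6.63, with a log2 change of 1.24 ± 0.21 (limma adjusted p = 0.177) and no ratio, since the DM mean was near background. NC levels of these 3 regulators were close to those of DM, at 5.96, 5.71, 5.90 and 5.96 for Irgm1, 5.65, 6.01, 5.98 and 5.93 for Irgm2 and 5.60, 5.59, 5.34 and 5.52 for Igtp.

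Among the effectors, Iigp1 (also Irga6) read 5.81, 6.14, 6.17 and 6.18 in DM and 6.92, 6.47, 7.65 and 7.11 in AngIV, a log2 change of 0.96 ± 0.20 and a ratio of 1.95 (limma adjusted p = 0.309). Tgtp2 (also Irgb6) had 0.60 ± 0.21 and Gm12250 (Irgb10), near background, 0.55 ± 0.23, both named after their values were seen. The gene models F830016B08Rik and Gm4841, which RefSeq lists under the synonyms Ifgga4 and Ifgga3 for interferon-gamma-inducible GTPases, had the 2 largest positive log2 changes of all genes tested. F830016B08Rik read 4.24, 5.35, 5.63 and 5.26 in DM and 6.97, 5.96, 8.01 and 6.71 in AngIV (1.80 ± 0.35, limma adjusted p = 0.182). Gm4841, which was not in the list, read 4.16, 4.77, 4.28 and 4.69 in DM and 6.07, 5.25, 7.04 and 6.00 in AngIV (1.62 ± 0.28, limma adjusted p = 0.177). Their DM means were near background, so the sizes are differences of signals and not measured folds of RNA. The remaining 4 members, Gm4951, Gm5431, Irgc1 and Irgq, named after their values were seen, had no nominal difference and had log2 changes of 0.31, 0.11, 0.02 and 0.13. IRG genes are similar in sequence, and probes of one could bind RNA of another, so their values are not independent.

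**Figure D2:**
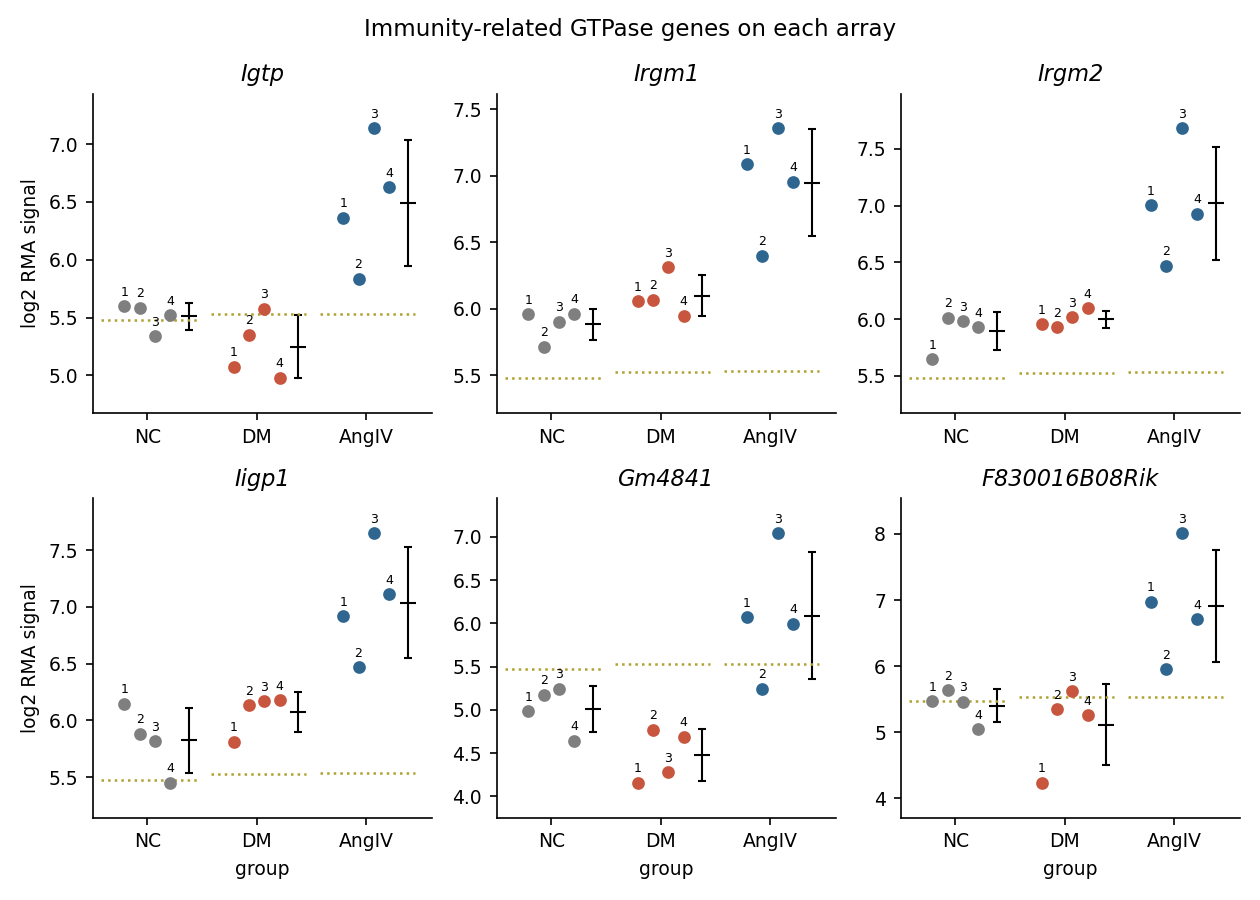
Log2 RMA signal (y axis) of 6 immunity-related GTPase genes on each array, by group (x axis), with replicate numbers, mean and SD (n = 4) and, dotted, the group mean of the level under which 95% of negative controls lay. In each panel the AngIV arrays lie above the DM arrays, and AngIV replicate 3 is the highest and AngIV replicate 2 the lowest of the treated arrays.

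The treated mice were not alike in these genes. AngIV replicate 3 had the highest signal of the AngIV arrays in 9 of the 11 IRGs and AngIV replicate 2 the lowest in 7, with both true of 6. The mean of the list lay above the DM mean by 0.65, 0.31, 1.12 and 0.68 on AngIV replicates 1 to 4. Without AngIV replicate 2 limma called exactly 5 genes, Igtp, Irgm1, Gm4841 (adjusted p = 0.00735 each), Irgm2 (adjusted p = 0.0115) and F830016B08Rik (adjusted p = 0.0329). Leaving out any 1 array left 6 to 8 IRGs nominally higher. Without the arrays with a Myl7 signal over 6, which leaves 1 DM array whose spread is assumed to equal that of the other groups, 3 were nominally higher and the median was 0.635.

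Other interferon-responsive lists had smaller median changes. Guanylate-binding proteins, a second family of interferon-inducible GTPases that works with the IRGs, had 6 tested members with a median log2 change of 0.29. Only Gbp4 was nominally higher, at 6.03, 5.94, 6.09 and 5.92 in DM and 7.03, 5.71, 6.53 and 6.47 in AngIV (0.44 ± 0.20), and AngIV replicate 2 lay below each DM array. The count was 4 without AngIV replicate 2 and 0 without AngIV replicate 1, 3 or 4 or DM replicate 2 or 4, and 2 without NC replicate 2 or 3. Among 34 tested interferon-stimulated genes, mostly antiviral effectors, 4 were nominally higher (11.8%) and 2 lower (5.88%), with a median of 0.08. Eif2ak2, the kinase PKR that stops translation on double-stranded RNA, had 0.46 ± 0.15, and Ifit2 0.44 ± 0.17 near background. Oas1a, which makes the activator of RNase L, had -0.33 ± 0.13, or -0.19 ± 0.17 with the covariate, also near background. With the covariate 3 of the list were higher and 0 lower. Counts on the higher side ran from 1 without AngIV replicate 1 or 3 to 8 without AngIV replicate 2, with 2 without DM replicate 2 or 3 and 0 without the arrays with a Myl7 signal over 6, and counts on the lower side from 0 without AngIV replicate 3 to 3. By array, the mean of these genes minus the DM mean was 0.33, -0.11, 0.22 and -0.05 on AngIV replicates 1 to 4.

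Of 21 tested genes of interferon signalling 3 were nominally higher (14.3%) and 1 lower (4.76%), with a median of 0.04. Irf9, the DNA-binding subunit of the interferon-stimulated complex, read 4.95, 4.59, 4.60 and 4.61 in DM and 5.54, 4.77, 5.26 and 5.25 in AngIV, near background in both. Jak2, a kinase of the interferon-gamma receptor, read 6.24, 6.07, 5.65 and 5.68 in DM and 6.31, 6.49, 6.38 and 6.29 in AngIV. The AngIV arrays lay just above the DM arrays, with a log2 change of 0.46 ± 0.14. Socs1, a feedback inhibitor of these kinases, had -0.50 ± 0.18, near background. Ifng itself was among the dimmest 30% of genes and was not tested. The lower count was 3 without DM replicate 1 and 0 without DM replicate 4.

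Class I antigen presentation, which shows peptides from inside the cell to CD8 T cells and is induced by interferon, had 22 tested genes, 7 nominally higher (31.8%) and 0 lower, with a median of 0.15. B2m, the light chain of class I molecules, read 11.08, 10.88, 10.90 and 10.78 in DM and 11.50, 11.11, 11.47 and 11.16 in AngIV, a log2 change of 0.40 ± 0.11 and a ratio of 1.32. The AngIV arrays lay above the DM arrays. H2-K1, a classical heavy chain, read 8.97, 8.63, 8.54 and 8.60 in DM and 9.28, 8.99, 9.39 and 8.93 in AngIV, where AngIV replicate 4 lay below DM replicate 1 (0.46 ± 0.13). H2-T22, a nonclassical heavy chain, read 5.62, 5.59, 5.37 and 5.62 in DM and 6.10, 5.96, 6.44 and 5.94 in AngIV, with no overlap, and its log2 change was 0.56 ± 0.16, or 0.88 ± 0.17 with the Myl7 covariate. With that covariate the count was 5, and it was 4 without AngIV replicate 1 and 2 without the high-Myl7 arrays. Class II presentation, the task of macrophages and B cells, had 10 tested genes with 0 nominally higher, 1 lower and a median of -0.12. The higher count was 1 without AngIV replicate 4, and the lower count was 0 without AngIV replicate 3 or DM replicate 3 and 3 without the high-Myl7 arrays.

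Markers of immune cells were set beside these counts. Of 16 listed T and NK cell markers 6 were tested and 0 differed nominally, with 1 higher without AngIV replicate 4. All 6 lay near background in both groups, and their mean was 3.50 to 3.59 over the DM arrays and 3.58 to 3.67 over the AngIV arrays. Of 22 macrophage markers 17 were tested, 0 differed nominally, and their mean was 5.52 to 6.51 in DM and 5.58 to 6.28 in AngIV. Without AngIV replicate 4, however, 5 macrophage markers were nominally higher, without DM replicate 1, 3, and without AngIV or DM replicate 3, 1. The part of immune cell content in the IRG and class I differences was not tested.

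Collagen genes were on the low side in AngIV. Of 18 tested collagens 17 had a negative log2 change, and 6 (33.3%) were nominally lower, beside 3.51% of all genes, with 0 higher. Their median was -0.25. Of the 18, 8 lay below the level of the negative controls in both groups, as did 7131 of all 13653 genes. Col3a1, collagen III of the fibrillar network around muscle fibres, read 6.45, 6.62, 6.91 and 6.95 in DM and 6.63, 5.88, 5.73 and 5.83 in AngIV. AngIV replicates 2 to 4 lay below each DM array, whereas replicate 1 lay within the DM range, and the log2 change was -0.72 ± 0.20, a ratio of 1.64 for DM over AngIV (limma adjusted p = 0.372). Col6a1 and Col6a2, chains of the microfibrillar collagen VI, had -0.36 ± 0.10 and -0.37 ± 0.12. Col6a1 read 5.88, 5.73, 6.03 and 5.86 in DM and 5.51, 5.57, 5.39 and 5.58 in AngIV, without overlap and with an AngIV mean just under the negative controls. The chains of collagen I, the most abundant collagen of scar, did not differ nominally, with -0.23 ± 0.16 for Col1a1 and 0.02 ± 0.13 for Col1a2. NC levels of Col3a1 were 7.51, 6.72, 7.18 and 7.33. The number of nominally lower collagens was 11 without AngIV replicate 1, 3 without AngIV replicate 4 and 2 without the high-Myl7 arrays. With the Myl7 covariate it was 4, the median was -0.18 and Col3a1 stood at -0.65 ± 0.27.

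The wider matrix list answered differently to the covariate. Of 40 tested matrix proteins and crosslinking enzymes 1 was nominally higher and 4 (10%) lower, with a median of -0.07, and with the Myl7 covariate 6 were higher and 1 lower, with a median of 0.18. Loxl1, a lysyl oxidase that crosslinks elastin, read 6.24, 6.54, 5.98 and 5.93 in DM and 5.64, 5.86, 5.76 and 5.33 in AngIV (-0.53 ± 0.14, and -0.38 ± 0.18 with the covariate). Sparc, a collagen-binding matricellular protein, had -0.36 ± 0.13. Timp3, an inhibitor of matrix metalloproteinases, read 7.56, 7.24, 6.64 and 6.60 in DM and 7.54, 7.62, 7.55 and 7.61 in AngIV, and its log2 change was 0.57 ± 0.20, or 0.99 ± 0.20 with the covariate. Postn, which encodes the fibroblast activation product periostin, read 7.16, 6.81, 6.64 and 6.89 in DM and 6.59, 6.31, 6.45 and 5.39 in AngIV, and its log2 change moved from -0.69 ± 0.33 to -0.04 ± 0.34. Fn1, fibronectin, with an AngIV mean near background, moved from -0.33 ± 0.22 to 0.07 ± 0.23. The higher count was 3 without AngIV replicate 1, 4 without DM replicate 1 and 0 without DM replicate 4.

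Transforming growth factor beta (TGF-beta) is the main inducer of collagen in fibroblasts. Of 20 tested genes of its pathway 3 (15%) were nominally higher and 2 (10%) lower, with a median of 0.01. The ligand Tgfb1 read 6.58, 6.56, 6.29 and 6.46 in DM and 6.37, 6.40, 6.54 and 6.28 in AngIV (-0.07 ± 0.13), and Tgfb2 had -0.46 ± 0.14, or -0.21 ± 0.16 with the Myl7 covariate, near background. Tgfbr1, the signalling receptor, read 5.59, 5.50, 5.71 and 5.30 in DM and 6.06, 5.96, 6.06 and 5.93 in AngIV, without overlap (0.48 ± 0.12, with the DM mean just under the negative controls). Smad3, which carries the signal to the nucleus, had -0.25 ± 0.11, and the target gene Ccn2 -0.04 ± 0.35, or 0.38 ± 0.43 with the covariate. With the covariate 1 of the list was higher and 1 lower. The higher count was 1 without AngIV replicate 2, 3 or 4 or DM replicate 2 or 4, and the lower count ran from 1 without AngIV replicate 2, 3 or 4, DM replicate 3 or 4 or NC replicate 4 to 3 without AngIV replicate 1. Fibroblast markers, 15 tested, had 0 nominally higher and 2 lower, with a list mean of 6.74 to 7.09 in DM and 6.53 to 6.91 in AngIV and a median of -0.10, or 0.09 with the Myl7 covariate, where 3 were higher and 1 lower. The lower count was 4 without AngIV replicate 1, 3 without NC replicate 1 or 2 and 1 without AngIV replicate 2 or 4 or DM replicate 1 or 2.

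**Figure D3:**
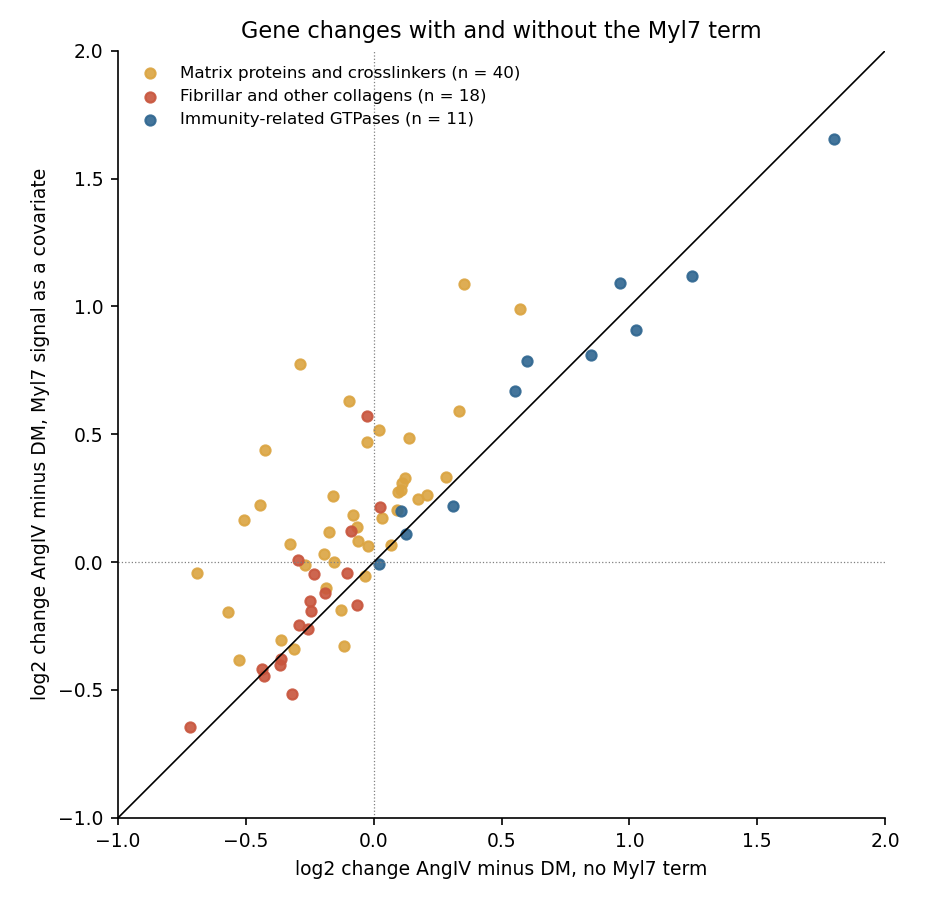
Log2 change AngIV minus DM of each tested gene of 3 lists without (x axis) and with (y axis) the Myl7 signal as a covariate; each point is a gene and the line marks equal values. Matrix genes lie mostly above the line, with a median that moves from -0.07 to 0.18. IRGs lie on both sides of it, with Igtp, Irgm1, Irgm2 and F830016B08Rik below, and have medians of 0.60 and 0.79.

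Outside these groups, the 15 genes with the smallest p on the higher side held 5 IRGs of the list and Gm4841. For each of the 15 the AngIV arrays lay above the DM arrays, which selection by p on the same arrays favours. Lrrc10, a leucine-rich repeat protein of the cardiomyocyte sarcomere, read 8.16, 8.68, 8.19 and 7.99 in DM and from 8.86 to 9.01 in AngIV, against 7.77, 7.61, 7.62 and 7.96 in NC. The AngIV arrays were the highest and the most alike, and the log2 change was 0.70 ± 0.13, a ratio of 1.62 (limma adjusted p = 0.182, and 0.0462 without DM replicate 2, where it was the 1 gene called). Pde1c, a calcium-activated phosphodiesterase of cardiomyocytes that breaks down cyclic nucleotides, read 7.09, 7.20, 7.05 and 6.85 in DM and 7.49, 7.58, 7.52 and 7.57 in AngIV (0.49 ± 0.11). Bckdha, a subunit of the complex that commits branched-chain amino acids to breakdown, read 8.25, 8.22, 8.22 and 8.43 in DM and 8.77, 8.73, 8.62 and 8.68 in AngIV, against 8.45, 8.43, 8.66 and 8.61 in NC (0.42 ± 0.09). P2ry1, a receptor for extracellular ADP, had 0.61 ± 0.13, with a DM mean near background, and Rasl11b, a small GTPase of the Ras family, had 0.64 ± 0.13. Ppm1l, a protein phosphatase, Runx1t1, a transcriptional corepressor, Spout1, a methyltransferase, and Cryz, a quinone reductase, had 0.56 ± 0.10, 0.64 ± 0.14, 0.45 ± 0.10 and 0.48 ± 0.11, all with both means near background.

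On the lower side, the 15 genes with the smallest p did not overlap between the groups in 13 cases, which the same selection favours. Of the 15, 10 lay near background in both groups. Lpcat3, an acyltransferase that places polyunsaturated chains into membrane phospholipids, read 8.46, 8.75, 9.10 and 8.71 in DM and 7.67, 8.10, 8.16 and 8.11 in AngIV. Each AngIV array lay below each DM array, and the log2 change was -0.74 ± 0.14, a ratio of 1.67 for DM over AngIV (limma adjusted p = 0.179). Slc41a3, a magnesium transporter, read 7.21, 6.97, 7.93 and 7.70 in DM, 6.73, 6.62, 6.55 and 6.79 in AngIV and 7.99, 8.22, 8.21 and 8.05 in NC, so that AngIV stood farthest from NC (-0.78 ± 0.17, or -1.05 ± 0.19 with the Myl7 covariate). Hspb1, a small heat shock protein that protects actin filaments, read 8.08, 8.20, 8.11 and 8.12 in DM and 7.85, 7.71, 7.66 and 7.67 in AngIV (-0.40 ± 0.09). Hikeshi, which carries Hsp70 proteins into the nucleus during heat stress, had -0.44 ± 0.10. Gngt2, a G protein gamma subunit, read 5.86, 5.45, 5.70 and 5.76 in DM and 5.05, 5.07, 5.09 and 5.18 in AngIV, where the AngIV mean was near background (-0.59 ± 0.10, limma adjusted p = 0.177). Among those near background in both groups, the phosphatase gene Dusp18 had -0.85 ± 0.19, the ATP and UTP receptor gene P2ry2 -0.69 ± 0.16 and Tgfb1i1, a focal adhesion adaptor, -0.45 ± 0.11. The others, Ccdc154, Tmc8, Tmem74b, Grrp1, Pprc1 and Ttc30b, had log2 changes from -0.54 to -0.43. All 30 genes of both sides were also at an unadjusted p under 0.05 with the Myl7 covariate.

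**Figure D4:**
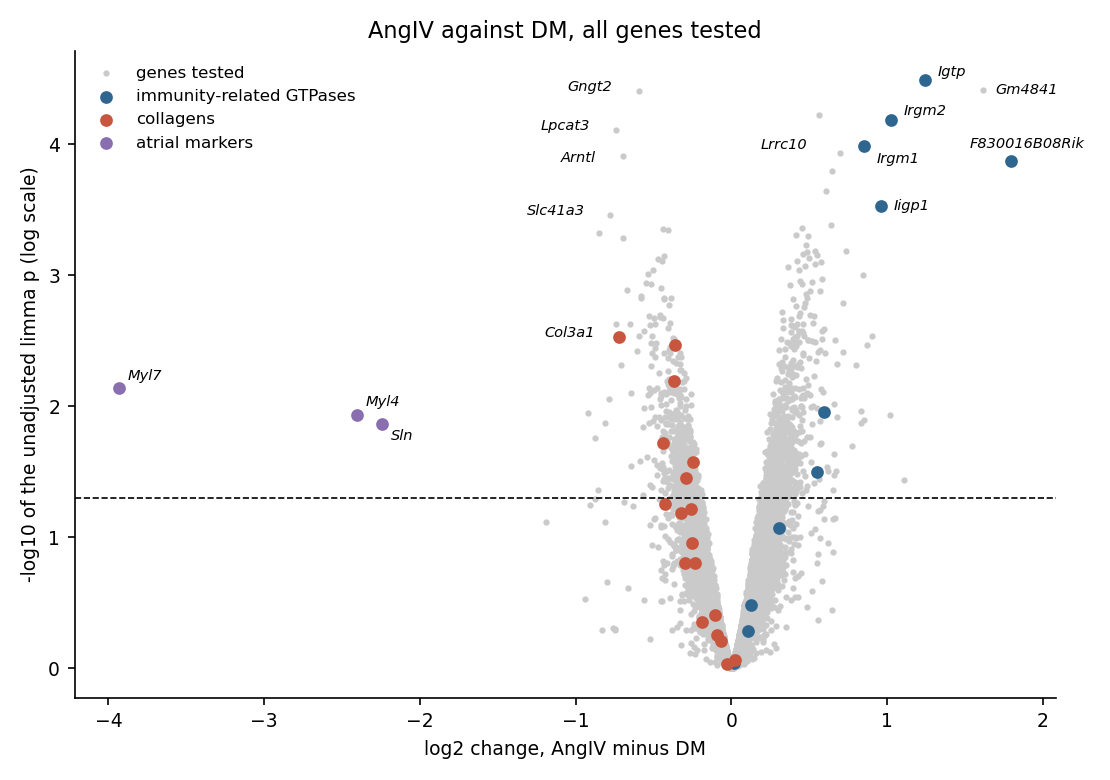
Log2 change AngIV minus DM (x axis) against -log10 of the unadjusted limma p (y axis, a log scale) for the 13653 genes tested; the dashed line marks a p of 0.05. IRGs lie at the upper right, collagens mostly to the left of 0 and the atrial genes Myl7, Myl4 and Sln at the far left with modest p-values, and no gene passed the adjusted test.

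The smallest p-values of the fit with the Myl7 covariate brought in other genes. Rbm5, a splicing regulator, read 6.90, 6.82, 6.12 and 6.69 in DM and 7.10, 6.89, 7.04 and 6.95 in AngIV, with DM replicate 3 lowest, and its log2 change was 0.36 ± 0.17 without and 0.80 ± 0.14 with the covariate. Egln3, a prolyl hydroxylase that marks hypoxia-inducible factors for destruction, read 7.32, 7.35, 8.34 and 8.01 in DM and 7.42, 7.44, 7.55 and 7.47 in AngIV, and moved from -0.28 ± 0.20 to -0.78 ± 0.16. Tfrc, the transferrin receptor for iron uptake, read 6.15, 5.74, 6.88 and 5.98 in DM and 5.02, 5.88, 5.64 and 4.54 in AngIV, and moved from -0.92 ± 0.32 to -1.57 ± 0.32, with an AngIV mean near background. Ccl2, a monocyte chemokine near background in both groups, moved from -0.35 ± 0.20 to -0.86 ± 0.15. In each case DM replicate 3, the DM array with little atrial signal, was the highest or the lowest DM array. None passed, the smallest adjusted p being 0.248.

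The circadian clock turns on the activators BMAL1, encoded by Arntl, and CLOCK, which drive the repressors Per and Cry. Of 21 tested clock genes 6 (28.6%) were nominally higher and 3 (14.3%) lower, with a median of 0.20. Arntl read 4.44, 4.21, 4.51 and 4.44 in DM and 3.52, 3.64, 3.55 and 4.10 in AngIV, both near background, against 5.72, 5.94, 5.89 and 5.57 in NC (-0.70 ± 0.13, limma adjusted p = 0.182). Clock read 7.46, 7.23, 7.44 and 7.54 in DM and 7.28, 7.20, 7.13 and 6.99 in AngIV (-0.27 ± 0.10), and Nr1d1, the repressor REV-ERB-alpha, 6.71, 7.15, 7.77 and 7.50 and 7.05, 6.83, 6.56 and 6.36 (-0.58 ± 0.24, or -1.09 ± 0.23 with the Myl7 covariate). Per2 read 5.42, 5.32, 5.11 and 5.02 in DM and 5.71, 6.00, 5.54 and 5.68 in AngIV, without overlap, with a DM mean near background (0.52 ± 0.13). The higher count was 1 without DM replicate 3, 3 without AngIV replicate 2 or 3 or DM replicate 4 and 8 without DM replicate 1, and the lower count 1 without AngIV replicate 4 and 5 without DM replicate 1. The hour at which each heart was taken is not given in the sources used here, and clock time and treatment cannot be told apart.

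FoxO transcription factors, active when insulin is low, induce genes of autophagy, protein breakdown and glucose sparing. Foxo1, named in the series title, read 6.00, 5.76, 5.49 and 5.64 in DM and 5.72, 5.25, 5.73 and 5.72 in AngIV, against 5.74, 5.51, 5.41 and 5.66 in NC. AngIV replicate 2 was the lowest of the 12 arrays, the other 3 AngIV arrays lay inside the DM range, and the log2 change was -0.12 with a 95% interval of -0.41 to 0.17 (limma adjusted p = 0.818). Foxo3 read 5.96, 5.95, 5.89 and 6.01 in DM and 5.98, 6.34, 6.36 and 6.29 in AngIV (0.29 ± 0.10), and Foxo4 had -0.36 ± 0.14, or -0.15 ± 0.16 with the Myl7 covariate, near background. Of 35 tested FoxO factors and regulated genes 6 (17.1%) were nominally higher and 1 (2.86%) lower, with a median of 0.10. Sesn1, a stress-induced inhibitor of the growth kinase mTOR complex, read 9.28, 9.20, 8.56 and 8.49 in DM and 9.27, 9.37, 9.47 and 9.83 in AngIV (0.60 ± 0.18). The muscle ubiquitin ligases Trim63 and Fbxo32, which mark muscle proteins for breakdown, had 0.49 ± 0.16 and 0.32 ± 0.12. In these genes DM replicates 3 and 4 lay lowest, and the count was 3 without either of them and 8 without AngIV replicate 1 or DM replicate 1, while the lower count ran from 0 to 2. With the Myl7 covariate 7 were higher and 0 lower. These values are mRNA levels and say nothing of FoxO protein, its phosphorylation or its place in the cell.

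Autophagy carries cell contents to the lysosome in double-walled vesicles. Of 42 tested genes of autophagosome formation 7 (16.7%) were nominally higher and 1 (2.38%) lower, with a median of 0.09. Atg4d, a protease that processes LC3 proteins, read 5.54, 5.56, 5.74 and 5.61 in DM and 6.12, 5.79, 5.87 and 5.89 in AngIV, without overlap (0.31 ± 0.11). Rubcn, an inhibitor of autophagosome maturation, read 5.42, 5.13, 4.68 and 4.94 in DM and 5.55, 5.70, 5.46 and 5.29 in AngIV, near background (0.46 ± 0.17). Map1lc3a, an LC3 gene, read 9.21, 9.37, 9.60 and 9.69 in DM and 9.25, 9.15, 9.19 and 9.16 in AngIV (-0.28 ± 0.11). Genes often used to read autophagy had no nominal difference in the fit without the covariate. Becn1, a subunit of the initiating lipid kinase, read 6.13, 6.07, 6.12 and 6.16 in DM and 6.23, 6.22, 6.19 and 6.11 in AngIV (0.07 ± 0.09), a narrow spread in both groups. Map1lc3b, the usual LC3, had 0.15 ± 0.11, the cargo receptor gene Sqstm1 0.21 ± 0.11 (or 0.35 ± 0.14 with the Myl7 covariate, where its unadjusted p was under 0.05), the conjugation genes Atg5 and Atg7 0.05 ± 0.14 and 0.18 ± 0.14, the starting kinase gene Ulk1, with a DM mean near background, 0.21 ± 0.14 and the mitophagy receptor gene Bnip3 0.01 ± 0.16. Mitophagy genes, 14 tested, and lysosome genes, 28 tested, had 0 nominal differences on all arrays and at most 2 without any 1 array, and with the covariate 1 mitophagy gene was lower and 1 lysosome gene higher. The autophagosome count was 5 higher and 0 lower with the covariate, and on the higher side 1 without DM replicate 3, 3 without AngIV replicate 1 or 4, 4 without AngIV replicate 3 or DM replicate 4 and 9 without DM replicate 1. Flux through the pathway is not measured by mRNA.

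Protein breakdown genes had small positive differences. Of 18 tested muscle ubiquitin ligases 3 (16.7%) were nominally higher and 0 lower, with a median of 0.12. Trim63 read 9.09, 9.06, 8.63 and 8.77 in DM and 9.31, 9.06, 9.34 and 9.81 in AngIV, where AngIV replicate 2 lay within the DM range, and Trim54, its microtubule-associated relative, had 0.35 ± 0.13. That count was 1 without DM replicate 3 or 4. Among 30 proteasome subunits 5 (16.7%) were nominally higher and 0 lower, with a median of 0.07. The lid and base subunit genes Psmd6, Psmd7 and Psmd4 had 0.25 ± 0.09, 0.23 ± 0.10 and 0.31 ± 0.14. Psmd6 read 6.60, 6.60, 6.59 and 6.74 in DM and 6.95, 6.78, 6.87 and 6.94 in AngIV, without overlap, a ratio of 1.19. The proteasome count was 3 with the Myl7 covariate, 1 without AngIV replicate 1 or 4 or DM replicate 3, 2 without DM replicate 4 or without the high-Myl7 arrays, 3 without AngIV replicate 3 and 7 without DM replicate 1.

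Genes of the angiotensin system itself had no nominal difference in the fit without the Myl7 covariate. Of 21 tested genes for angiotensin precursors, receptors and peptidases 0 were nominally higher or lower on all arrays, with a median of 0.00, while with the covariate 1 was higher and 2 lower, with a median of -0.04, and with only the 8 AngIV and DM arrays 1 was lower. Agtr1a, the main angiotensin II receptor, read 7.49, 7.77, 7.43 and 7.57 in DM and 7.42, 7.59, 7.80 and 7.87 in AngIV, a log2 change of 0.10 with a 95% interval of -0.16 to 0.36. Agt, the precursor, had 0.03 ± 0.15, near background, and Ace, the converting enzyme, 0.29 ± 0.17, or 0.49 ± 0.21 with the covariate, where it was the gene counted as higher. Of the aminopeptidases that lead from angiotensin II to angiotensin IV, Enpep had 0.17 ± 0.21, near background, and Anpep -0.12 ± 0.20. Rnpep, a related aminopeptidase near background, had -0.07 ± 0.15, or -0.31 ± 0.17 with the covariate. Agtr2, Mas1 and Met, which encode other receptors proposed for angiotensin peptides, were among the dimmest 30% of genes, and Lnpep was not analysed here. Without AngIV replicate 4 the higher count was 2, and without AngIV replicate 1 or 2 or DM replicate 2 or 4 or NC replicate 3 the lower count was 1.

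Genes of fatty acid use, which streptozotocin diabetes is known to raise in heart through PPAR-alpha, varied widely among the treated mice. Of 36 tested members 1 was nominally higher and 1 lower, and the median was -0.08. Pdk4, the kinase that shuts glucose out of the citric acid cycle, read 10.31, 9.73, 9.18 and 8.58 in DM and 7.34, 9.57, 8.98 and 8.67 in AngIV, against 8.03, 8.44, 8.36 and 7.32 in NC. Ucp3, a mitochondrial carrier, read 8.68, 8.31, 7.98 and 7.57 in DM and 5.98, 8.58, 7.68 and 6.67 in AngIV, against 6.43, 7.14, 7.07 and 5.98 in NC. Acot1, a thioesterase that frees fatty acids from coenzyme A, read 8.12, 7.85, 7.35 and 6.77 in DM and 5.95, 7.54, 6.98 and 7.09 in AngIV, against 5.90, 5.82, 6.23 and 5.68 in NC. For all 3 AngIV replicate 1 read within the NC range and AngIV replicate 2 within the DM range, and the log2 changes, -0.81 ± 0.42, -0.91 ± 0.44 and -0.63 ± 0.31, were not nominal. Without AngIV replicate 2 the lower count was 6, without DM replicate 4 it was 7 and without AngIV replicate 3 it was 2. Cpt2, the inner-membrane carnitine transferase, had a small difference without overlap (-0.30 ± 0.10). Its signals were 8.23, 8.18, 8.05 and 8.01 in DM and 7.76, 7.98, 7.77 and 7.75 in AngIV, where replicate 2 stood close under the lowest DM array. Lpl, the lipase that frees fatty acids from circulating lipoproteins, had 0.23 ± 0.10, or 0.14 ± 0.13 with the Myl7 covariate, where 0 of the list were higher and 1 lower.

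Of 28 tested genes of glucose uptake and glycolysis 5 (17.9%) were nominally higher and 2 (7.14%) lower, with a median of 0.145. Slc2a1, the insulin-independent glucose transporter, read 5.66, 6.05, 6.37 and 6.47 in DM and 6.89, 6.75, 6.38 and 6.92 in AngIV, against 6.63, 6.44, 6.62 and 6.72 in NC, so that AngIV replicates 1, 2 and 4 stood above each DM and NC array (0.60 ± 0.17). Hk2, the muscle hexokinase, moved from 0.48 ± 0.20 to 0.25 ± 0.25 with the Myl7 covariate. Pygb, a glycogen phosphorylase, read 9.42, 9.50, 9.22 and 9.16 in DM and 9.58, 9.63, 9.75 and 9.63 in AngIV, without overlap (0.32 ± 0.10). Aldoc, the brain aldolase, had -0.36 ± 0.11, near background, and Slc2a4, the insulin-responsive transporter, 0.16 ± 0.11. The count was 2 with the covariate, 2 without AngIV replicate 1, 3 without DM replicate 2 or 4 and 1 without the high-Myl7 arrays. Oxidative phosphorylation, 44 tested, had 1 nominally higher subunit gene, Ndufs1 at 0.22 ± 0.10, with 4 without DM replicate 1, 2 without NC replicate 1 and 0 without AngIV replicate 1, 2 or 3, DM replicate 2 or 3 or NC replicate 4, and 0 higher and 1 lower with the covariate. In the sterol and fatty acid synthesis list, 23 tested, 1 was higher and 1 lower, the desaturase gene Scd4 reading 7.69, 6.57, 6.67 and 5.98 in DM, 5.10, 5.93, 6.15 and 6.22 in AngIV and 4.79, 5.28, 5.52 and 4.47 in NC (-0.88 ± 0.33), and with the covariate 0 differed nominally. The insulin and mTOR list, 31 tested, had 2 higher and 0 lower, Pik3r1, the regulatory subunit of PI3 kinase, at 0.51 ± 0.17 and the kinase gene Akt1 at 0.21 ± 0.10, with 1 higher without AngIV replicate 2, 3 or 4, DM replicate 3 or 4 or NC replicate 2 or 3.

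Immediate early genes, transcribed within minutes of a stimulus, were on the low side. Of 30 tested 5 (16.7%) were nominally lower and 0 higher, with a median of -0.11, and with the Myl7 covariate 6 were lower. Dusp1, a phosphatase that ends MAP kinase signals, read 8.10, 7.80, 8.34 and 7.86 in DM and 7.42, 7.93, 7.46 and 7.37 in AngIV, with AngIV replicates 1, 3 and 4 below each DM array (-0.48 ± 0.14). Fos, a subunit of the AP-1 factor, read 4.23, 4.58, 4.76 and 4.24 in DM and 3.17, 4.09, 4.07 and 3.92 in AngIV, near background (-0.64 ± 0.21, or -1.01 ± 0.23 with the covariate). Klf10, an early TGF-beta response gene, had -0.79 ± 0.26. Leaving out 1 array gave 4 to 7 lower genes.

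Genes that glucocorticoids induce differed between the mice of each group. Fkbp5, a chaperone that follows glucocorticoid exposure closely, read 8.69, 7.76, 6.02 and 6.24 in DM and 7.64, 8.69, 8.25 and 8.55 in AngIV, against 6.35, 4.88, 5.93 and 5.77 in NC. DM replicates 1 and 2 lay with the AngIV arrays and DM replicates 3 and 4 with NC, and the log2 change was 1.11 ± 0.48, or 2.03 ± 0.51 with the Myl7 covariate. Bcl2l1, the survival factor Bcl-xL, read 7.22, 6.28, 6.04 and 5.97 in DM and 6.50, 7.27, 6.97 and 7.21 in AngIV, where DM replicate 1 lay with the AngIV arrays (0.61 ± 0.25, or 0.94 ± 0.31 with the covariate). Sgk1, a glucocorticoid-induced kinase, had -0.44 ± 0.16, and the metallothionein genes Mt1 and Mt2 0.00 ± 0.14 and -0.28 ± 0.24, the latter 0.25 ± 0.23 with the covariate. Of the 16 tested genes of that list 1 was nominally higher and 2 lower, and the higher count was 0 without AngIV replicate 2, 3 or 4 or DM replicate 3 or 4, 2 without AngIV replicate 1 or DM replicate 2, 3 without NC replicate 2 and 4 with the covariate or without DM replicate 1, while 1 was lower with the covariate. In the apoptosis list, 21 tested, 4 were higher and 1 lower, and 0 were higher without DM replicate 4, 1 without DM replicate 3 and 2 without AngIV replicate 2 or 4.

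Stress and repair lists gave few differences. Endoplasmic reticulum stress genes, 23 tested, had 2 nominally higher, Herpud1 of the degradation complex at 0.53 ± 0.17 and the stress transcription factor gene Atf4 at 0.33 ± 0.15, and 1 lower, Chac1 at -0.36 ± 0.15 near background. The higher count was 1 without AngIV replicate 1 or 4 or DM replicate 3 or 4. Heat shock genes, 22 tested, had 1 lower, Hspb1, and antioxidant genes, 25 tested, had 3 lower and 0 higher, among them the glutathione enzymes Gsr at -0.30 ± 0.10 and Gpx1 at -0.27 ± 0.10 and thioredoxin, Txn1, at -0.26 ± 0.11. With the Myl7 covariate the antioxidant count was 1. Inflammation and chemokine genes, 28 tested, had 0 nominal differences on all arrays and a median of -0.08, and with the covariate 1 was higher and 3 lower. There were 2 lower without AngIV replicate 2, DM replicate 1 or NC replicate 1, 1 lower with only the 8 AngIV and DM arrays and 1 higher without AngIV replicate 4 or DM replicate 1.

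**Figure D5:**
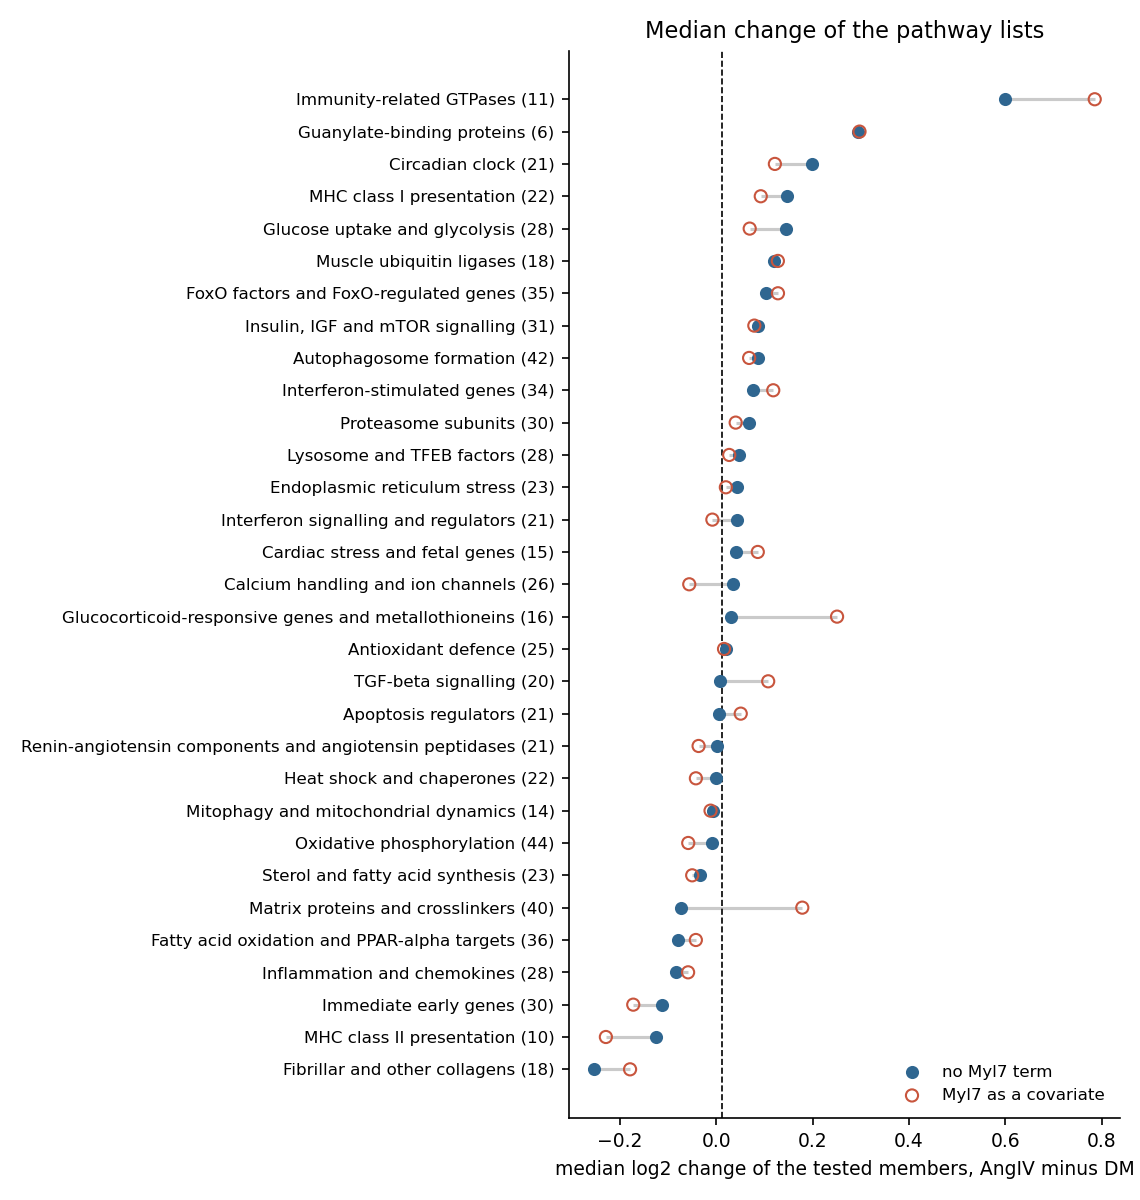
Median log2 change AngIV minus DM (x axis) of the tested members of each of 31 pathway lists (y axis, number tested in brackets), without (filled) and with (open) the Myl7 covariate; the dashed line is the median of all genes, 0.01. The IRGs lie highest, at 0.60 and 0.79, and the collagens lowest without the covariate, at -0.25.

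The muscle markers checked the tissue label. Working cardiomyocyte markers, 16 tested, had a mean of 10.87 to 10.91 over the DM arrays and 10.94 to 11.04 over the AngIV arrays, well above the negative controls, and 1 was nominally higher, Mybpc3, cardiac myosin-binding protein C, at 0.37 ± 0.11. The adult myosin heavy chain gene Myh6 had 0.07 ± 0.09. Markers of cardiac load did not differ nominally in the fit without the covariate. Nppa, the atrial natriuretic peptide gene, read from 5.12 to 10.51 in DM and 7.33, 8.98, 8.77 and 9.65 in AngIV, a log2 change of 0.04 ± 0.89, or 2.15 ± 0.76 with the Myl7 covariate, and DM replicate 3 lay far below the rest. Nppb, the B-type peptide gene, had -0.44 ± 0.42, the fetal myosin gene Myh7 0.59 ± 0.28, or 0.98 ± 0.34 with the covariate, where its unadjusted p was under 0.05, and skeletal actin, Acta1, -0.43 ± 0.29. The cardiac stress list, 15 tested, had 0 nominal differences without the covariate and 4 higher with it, and 2 higher without AngIV or DM replicate 2. Of 26 calcium handling and ion channel genes 2 were lower and 0 higher, the potassium channel subunit gene Kcne1 at -0.56 ± 0.16, near background, and the sodium channel subunit gene Scn4b at -0.34 ± 0.14, and 3 were lower with the covariate. Endothelial markers, 17 tested, had 1 nominally higher and 0 lower, with 5 higher without DM replicate 1, 2 without AngIV replicate 2 or 3 and 0 without AngIV replicate 1 or DM replicate 3 or 4. Smooth muscle and pericyte markers, 15 tested, had 14 positive log2 changes and a median of 0.22, with 0 nominal differences on all arrays. In this list 4 were higher with the Myl7 covariate, with only the 8 AngIV and DM arrays and without NC replicate 1, and 1 without AngIV replicate 3, DM replicate 1 or 2 or NC replicate 4.

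Abat and Epha4, from a list of genes that differ between DM and NC hearts, were followed into the AngIV group. These comparisons share the DM arrays, and genes picked for a low DM level lean toward a positive change AngIV minus DM. Their values are therefore described and not read as a test, although Abat is among the 27 named genes counted as losing a nominal call with the Myl7 covariate. Abat, which breaks down the transmitter GABA, read 7.06, 7.46, 7.46 and 7.36 in NC, 5.15, 5.16, 5.66 and 5.95 in DM and 6.73, 5.74, 5.76 and 5.97 in AngIV, so that AngIV replicate 1 lay nearest to NC and the other 3 AngIV arrays lay at the upper end of DM. The log2 change of Abat, with a DM mean near background, was 0.57 ± 0.22, or 0.37 ± 0.28 with the covariate. Epha4, an ephrin receptor, read 6.54, 6.62, 6.81 and 6.62 in NC, 5.66, 5.63, 5.40 and 5.80 in DM and 5.90, 5.45, 5.64 and 6.07 in AngIV, which overlapped with DM. Arntl lay lower in AngIV than in DM, on the far side from NC, as its values above show.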

How the data were processed

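Total RNA of myocardium from 12 mice (4 each NC, DM and AngIV) was labelled from 6 µg and read on 1 array per mouse, per the labels' protocols. The deposited values are log2 signals that the authors summarised by RMA, per the submitters' processing notes; the version is not given, and the log2 scale was read from the values. RMA includes quantile normalization, and the arrays have almost equal medians (4.48 to 4.53), so changes are relative to the other genes.

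Of 29129 probe sets 6923 were controls. Platform annotation gave 1 symbol for 19572 transcript probe sets, none for 2634 and several for 0, and each symbol's Entrez identifier matched RefSeq, with 0 symbols updated. Of 19505 genes, 55 with several probe sets were taken by the highest mean, and the dimmest 30% (mean log2 under 3.40) were dropped, leaving 13653. Limma 3.58.1 in R 4.3.3 fitted group means over the 12 arrays, with empirical Bayes variances and Benjamini-Hochberg adjustment over all genes; the script was tested on simulated data. The number of arrays limits the precision. P-values rest on the spread between mice within groups, pooled over NC, DM and AngIV with 4 mice each and moderated over all genes. Cages, batches and scan dates are not given in the sources used here. Promoters are from RefSeq GRCm38.p6.

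The members and gene lists were chosen with earlier results of these data known. Named genes were the 15 per direction with the smallest p, 8 per direction with the Myl7 covariate, a list of textbook genes, and up to 3 per gene list among those at an unadjusted p under 0.05, except where marked as chosen after their values were seen.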

Additional observations from a re-analysis of the deposited data

Results flagged for a closer look

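For the genes named in the text, 438 groups of 4 arrays were tested for 1 array far from the other 3 (Dixon's test), and 28 had one. That is near the share of about 1 in 20 that chance gives, so any entry below may be chance. In the AngIV group, replicate 2 stood apart for Foxo1, at 5.25 against 5.72 to 5.73 on the other 3 arrays, for Cpt2, at 7.98 against 7.75 to 7.77, and for Dusp1, at 7.93 against 7.37 to 7.46. AngIV replicate 1 stood apart for Col3a1, at 6.63 against 5.73 to 5.88, for Lpcat3, at 7.67 against 8.10 to 8.16, and for Hikeshi, at 6.39 against 6.59 to 6.61. AngIV replicate 4 stood apart for Anpep, at 5.61 against 6.36 to 6.44, and, near background, for Isg15 at 3.42, Pprc1 at 3.49 and Tgfb1i1 at 4.85.

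Among the DM arrays, replicate 3, the one with little atrial signal, was low for Ace, at 6.10 against 6.44 to 6.49, for Cilp, at 3.51 against 4.63 to 4.82, and for H2-T22, at 5.37 against 5.59 to 5.62, and high for Acad8, at 7.15 against 7.04 to 7.06. DM replicate 1 was high for Fn1, at 6.43 against 5.54 to 5.59, and for Irf9, at 4.95 against 4.59 to 4.61, and low for Iigp1, at 5.81 against 6.14 to 6.18, and for Pprc1, at 3.36. DM replicate 4 stood apart for Bckdha, at 8.43 against 8.22 to 8.25, for Psmd6, at 6.74 against 6.59 to 6.60, and for Runx1t1, at 4.36 against 4.82 to 4.85, and DM replicate 2 for Myh6, at 11.66 against 11.85 to 11.88. In NC, replicate 2 stood apart for Loxl1 at 6.02, Mt1 at 9.87, P2ry2 at 5.31 and Sqstm1 at 9.09, replicate 1 for Tfrc at 4.71 and replicate 4 for Grrp1 at 3.58.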

How the results depend on the processing

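The count of genes called was 0 under the settings other than leaving out 1 array, where it ran from 0 to 5 (5 without AngIV replicate 2, 1 without DM replicate 2). Among the settings that keep every array of both groups the smallest adjusted p ran from 0.0596 with a trend in the prior to 0.335 with only the 8 AngIV and DM arrays, and with 1 array left out from 0.00735 without AngIV replicate 2 to 0.400 without DM replicate 4. Leaving out 1 array gave 474 to 982 nominally higher and 379 to 669 nominally lower genes (lowest without DM replicate 4 and AngIV replicate 4, highest without DM replicate 1). Genes that followed Myl7 within groups, with Myl7 itself counted, numbered 4 to 11 with 1 array left out, and 4 with only the 8 arrays. The cause was not tested. Of 101 named genes with an unadjusted p under 0.05, 2 changed sign among 2411 values, Myl4 (0.16) and Sln (0.20) with the Myl7 covariate, which takes out what they share with Myl7 by construction. The 101 were set apart by that p on largely the same arrays, which by itself makes a change of sign rare. For the 45 other named genes 68 of 1074 values changed sign. Deviations of same-numbered DM and AngIV arrays correlated at -0.06, -0.05, -0.01 and 0.07, within the -0.12 to 0.19 of differently numbered ones. These values do not decide whether replicate numbers pair the mice. With the replicate block 0 genes were called, 999 of the 1199 genes kept an unadjusted p under 0.05, and the IRG median was 0.60. In all, 7131 of the 13653 genes lay below the negative controls' 95th percentile in both groups, and their differences are differences of signals near background. Settings chosen after seeing the data were those for the genes that followed Myl7.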

Other observations

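Breakdown of branched-chain amino acids (leucine, isoleucine and valine) is a group not described above. Its list was assembled after Bckdha was seen among the leading genes, so its counts are described and not read as a test. Of 22 tested genes of that pathway 21 had a positive log2 change AngIV minus DM and 12 (54.5%) were nominally higher, beside 5.27% of all genes, with 0 lower and a median of 0.23. The mean of the list was 7.38, 7.28, 7.56 and 7.56 on DM replicates 1 to 4 and 7.74, 7.71, 7.64 and 7.71 on AngIV replicates 1 to 4, and NC arrays ran from 7.63 to 7.87. Ppm1k, the phosphatase that switches the rate-limiting complex on, read 7.89, 7.51, 7.81 and 7.67 in DM and 8.37, 8.48, 8.02 and 8.17 in AngIV, without overlap (0.54 ± 0.13). Dbt, the core subunit of that complex, had 0.40 ± 0.12. Further down the pathway, Acadsb, Acad8 and Ivd, dehydrogenases of the branched acyl chains, had 0.41 ± 0.11, 0.30 ± 0.09 and 0.27 ± 0.13. With the Myl7 covariate 4 were nominally higher and the median was 0.15, with 0.10 ± 0.15 for Ivd. The genes named in this paragraph were chosen after their values were seen.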
